A study of Mus musculus with 4 samples.

Results

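Oxidative phosphorylation (OXPHOS) takes place in the inner mitochondrial membrane, where complex I (NADH dehydrogenase) and complex II (succinate dehydrogenase) pass electrons through complex III (the cytochrome bc1 complex) to complex IV (cytochrome c oxidase), which reduces oxygen to water. Complexes I, III and IV pump protons during this transfer, and complex V (ATP synthase) uses the proton gradient to make ATP. Mitochondrial DNA encodes a small set of core subunits, while complex II and most subunits of the other complexes are encoded in the nucleus, so that their supply depends on nuclear promoters. Oxygen is scarce around the mesenchymal stem cells (MSCs) of bone, a setting in which glycolysis is known as a source of their energy. The nuclear OXPHOS genes were defined here by symbol, as protein-coding genes that begin with Ndufa, Ndufb, Ndufc, Ndufs, Ndufv, Uqcr or Atp5, the genes Sdha to Sdhd, and those named Cox followed by a digit from 4 to 8 and a letter. Of 93 such genes, 3 lie on the X chromosome and were set aside, which left 90 autosomal genes. A member was an autosomal peak of open chromatin within 1 kb of a protein-coding transcript start of one of these genes. This gave 90 peaks at 87 genes, out of 117282 peaks in the whole data set and 15717 autosomal promoter peaks. Complex I contributed 45 peaks, complex II 4, complex III 9, complex IV 14 and complex V 18, where genes were placed by symbol. The symbols take in the complex I assembly factors of the Ndufaf group, and they place Ndufa4, which is now assigned to complex IV, with complex I.

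Chromatin accessibility was measured by ATAC-seq, in which a transposase inserts sequencing adapters into open DNA, in 2 samples of MSCs from old mice (18 to 22 months of age) and 2 samples from young mice (3 to 5 months of age), all 4 grown only at 2% O2. The methods of the study cover male C57BL/6N mice of the young age only, with MSCs sorted from the endosteal surface of bone for CD140a and Sca-1 and against the blood cell proteins CD45 and Ter119, and the strain, sex and sort of the old mice are not given in the sources used here. The labels do not say whether the samples of an age group came from separate animals or cultures, so p-values measure only the spread between these samples. Library totals were similar, at 28600303 and 32559794 counts in old replicates 1 and 2 and 28259470 and 29413803 counts in young replicates 1 and 2. The deposited values were taken to be counts per 10000000 of the library total, on which these totals rest, without division by peak length. Their median over all peaks was 13.3 and 16.0 in old replicates 1 and 2 and 16.6 and 18.0 in young replicates 1 and 2. Unless stated otherwise, they were divided by a scaling factor per sample that sets the typical peak to no change (relative log expression, RLE), and log2 fold changes compare old with young MSCs on the log2(value + 1) scale, which understates changes of weak peaks. Levels are compared between genes only per kb of peak width. In a bulk sample, less accessible chromatin in each cell cannot be told apart from a smaller share of cells with open chromatin.

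The promoters of the OXPHOS genes were open in nearly every case. A promoter peak was present at 87 of 90 autosomal genes (96.7%, 95% Wilson interval from 90.7% to 98.9%), compared with 14864 of 20698 autosomal protein-coding genes (71.8%), 80 of 88 ribosomal protein genes and 37 of 39 proteasome genes. The 3 genes without a promoter peak were Cox6a2, Cox7b2 and Cox8c, which encode forms of complex IV subunits known from heart and skeletal muscle or from testis. Of the 90 peaks, 88 covered a transcript start, and the remaining 2 were narrow peaks beside a start at Atp5g3 and Uqcrc1. Per kb of width, the median OXPHOS peak had a value of 37.3, compared with 27.1 over all autosomal promoter peaks, 32.5 at ribosomal protein genes, 39.1 at proteasome genes and 13.3 over all peaks. The OXPHOS peaks had a median width of 2300 bp and a median GC content of 50.1%, against 2600 bp and 51.8% over all autosomal promoter peaks. As a check of the cell type, all 10 bone MSC markers had a promoter peak. Among markers of other cells, 3 of 7 blood cell genes, 3 of 4 endothelial genes and 1 of 3 skeletal muscle genes had one. The defining blood marker Ptprc (CD45), against which cells were sorted in those methods, had no promoter peak, and neither did Cdh5 of endothelium or Myog of muscle. The blood cell promoters summed to 92.9 and 92.4 in old and 114 and 90.2 in young MSCs, with Klf1 the highest per kb, and the bone MSC promoters summed to 1772, 2086, 1751 and 1669 in the same order, with Pdgfra the highest per kb. The endothelial promoters summed to 65.4, 66.5, 81.6 and 77.5, with Tek the highest per kb, and Myod1, the only muscle promoter with a peak, had 6.88 and 1.52 in old and 6.63 and 2.67 in young MSCs. These sums are not corrected for peak width or for the number of peaks, so they do not compare the marker lists with each other. Per kb, the median marker peak had a value of 18.7 for bone MSC, 21.1 for blood cell and 18.1 for endothelial genes, and 8.86 at Myod1. The part of these cells in the results below was not tested.

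Once the samples were scaled to each other, no OXPHOS promoter peak differed between old and young MSCs beyond the threshold of the test, and the median log2 fold changes of the 5 complexes lay between -0.074 and 0.014. Of the 90 peaks, 0 passed the threshold (limma, Benjamini-Hochberg adjusted p under 0.01 over all 117282 peaks), where 66 peaks or 0.0563% of all peaks passed. Among the 15717 autosomal promoter peaks, 6 passed. At an adjusted p under 0.05 the OXPHOS count was also 0, against 1.12% of all peaks and 55 autosomal promoter peaks. At an unadjusted p under 0.05 the OXPHOS count was 4 (4.44%), against 16.4% of all peaks and 9.61% of autosomal promoter peaks. With limma-voom on counts recovered from the values, 0 members passed (0.123% of all peaks, and 9 autosomal promoter peaks). In that fit 5 members had an unadjusted p under 0.05 (5.56%, against 17.6% of all peaks and 11.2% of autosomal promoter peaks). At the OXPHOS peaks the median log2 fold change was -0.035, compared with -0.023 at all autosomal promoter peaks and 0.0011 over all peaks. It turned to 0.0084 with quantile normalization and to 0.053 without old replicate 1, so that its sign depended on these choices. In all, 53 peaks were lower and 37 higher in old MSCs, and 87 of 90 lay within 0.5 of no change on the log2 scale (96.7%, compared with 92.0% of autosomal promoter peaks and 75.6% of all peaks). The typical 95% interval of a single OXPHOS peak reached 0.38 to either side of its fold change (median), and the 66 peaks that passed all had an absolute log2 fold change of at least 0.74. Smaller differences were not detectable with this test, depth and number of samples. Each old sample was below each young one at 19 OXPHOS peaks (21.1%, against 24.2% of all peaks and 25.2% of autosomal promoter peaks) and above both at 9 (10.0%, against 23.2% and 16.0%). Ribosomal protein genes, another large set of constitutively active promoters, had a median log2 fold change of 0.029, and proteasome genes one of -0.081 (-0.26 and -0.37 on the values as deposited). The count of 0 depended on old replicate 1. Without this sample, with the lone old sample taken to vary like the others, 6 members passed the same threshold, against 8.79% of all peaks, with Ndufaf4, Ndufv2 and Atp5e lower and Ndufv1, Uqcr10 and Atp5d higher in old MSCs.

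On the values as deposited, where all peaks together had a median log2 fold change of -0.27, the OXPHOS promoters shared in this shift. Their median was -0.32, compared with -0.31 at all autosomal promoter peaks. Of the 90 peaks, 85 were lower in old MSCs (94.4%), compared with 86.6% of autosomal promoter peaks and 74.6% of all peaks. The exceptions were Ndufaf1, Cox6c, Cox7a1, Atp5a1 and Atp5d, with log2 fold changes from 0.018 to 0.18. The groups did not overlap at 49 peaks, all with each old sample below each young one (54.4%, against 43.5% of all peaks and 49.8% of autosomal promoter peaks), while the opposite order was found at 0 members, 7.56% of all peaks and 3.01% of autosomal promoter peaks. No member passed an adjusted p under 0.01 here either (limma, 1.18% of all peaks and 33 of the 15717 autosomal promoter peaks). An unadjusted p under 0.05 was found at 13 members (14.4%, against 20.2% of all peaks and 17.3% of autosomal promoter peaks). The shift was larger in old replicate 1 than in old replicate 2. The median OXPHOS peak had a deposited value of 70.3 in old replicate 1 but 97.7 in old replicate 2, compared with 97.3 and 105 in young replicates 1 and 2, so that the groups overlapped. Without old replicate 1 the median log2 fold change was -0.080 and 64.4% of members were lower, and without old replicate 2 the values were -0.58 and 100%.

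The old replicates differed from each other at the OXPHOS promoters, as they did at other peaks. After RLE scaling, 61 of the 90 OXPHOS peaks were higher in old replicate 2 than in old replicate 1 (67.8%, against 59.0% of autosomal promoter peaks and 49.0% of all peaks), with a median log2 difference, old replicate 1 minus old replicate 2, of -0.15. The same median was -0.24 at ribosomal protein genes and -0.22 at proteasome genes, but -0.081 at all autosomal promoter peaks and 0.0098 over all peaks. The median absolute gap between replicates was 0.22 in old and 0.11 in young MSCs at the OXPHOS peaks, compared with 0.25 and 0.13 at all autosomal promoter peaks, 0.28 and 0.094 at ribosomal protein genes and 0.31 and 0.21 over all peaks. At the OXPHOS peaks the median absolute log2 fold change between the age groups was 0.11. Against young replicates 1 and 2, the median log2 difference at the OXPHOS peaks was -0.12 and -0.10 for old replicate 1, and 0.028 and 0.085 for old replicate 2. By these medians, the old samples lay on opposite sides of the young ones. Old replicate 2 also stood apart in the share of its summed deposited values at the peaks on mitochondrial DNA, which was 6.52%, compared with 15.7% in old replicate 1 and 13.5% and 14.5% in young replicates 1 and 2. With library totals that leave out these mitochondrial peaks, the median log2 fold change on the values as deposited was -0.37 in place of -0.32, with 96.7% of members lower. The part of this share in the gap between the old replicates was not tested.

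Complex I, which oxidises NADH and passes the electrons to ubiquinone, had 45 peaks at 44 genes, of which 29 were lower and 16 higher in old MSCs. Their median log2 fold change was -0.035 (0.0035 with quantile normalization). The most accessible promoter per kb was that of Ndufb5, an accessory subunit of the membrane arm, at chr3:32735901-32738000, with 104 per kb. This peak, which also covers the start of the mitochondrial ribosomal protein gene Mrpl47, had values of 187 and 219 in old replicates 1 and 2 and 238 and 226 in young replicates 1 and 2. The old samples were below the young ones, but by less than the interval of the difference (log2 fold change -0.20, 95% interval from -0.50 to 0.11). It was -0.081 and -0.31 without old replicates 1 and 2 in turn, and -0.33 once GC content and width were taken out. The least accessible was Ndufs4, an accessory subunit whose loss in mice causes a Leigh-like brain disease, with 15.2 per kb and values of 33.6 and 26.2 in old and 31.8 and 29.7 in young MSCs, which overlapped. Ndufv1, which holds the flavin that accepts electrons from NADH, differed between the old replicates, with values of 58.5 and 113 in old replicates 1 and 2 and 78.3 and 60.0 in young replicates 1 and 2. Old replicate 2 was the high sample and old replicate 1 the lowest, and the log2 fold change was 0.25 (95% interval from -0.27 to 0.76), -0.22 without old replicate 2 and 0.72 without old replicate 1, where it passed the threshold. It was 0.44 and 0.056 without young replicates 1 and 2, and 0.11 with GC content and width taken out. Ndufs1, an iron-sulfur subunit whose peak is shared with the translation factor gene Eef1b2, had values of 93.4 and 102 in old and 87.9 and 100.02 in young MSCs and overlapping groups.

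The lowest log2 fold change in complex I was at Ndufv2, which encodes another iron-sulfur subunit and has 2 promoter peaks. The weaker one, at chr17:66090901-66093900, covers the start of a shorter annotated transcript inside the gene and had values of 48.6 and 36.6 in old replicates 1 and 2 and 54.7 and 69.4 in young replicates 1 and 2. Each old sample was below each young one, with a log2 fold change of -0.54 (95% interval from -0.99 to -0.081, limma adjusted p = 0.226). Without old replicate 1 it was -0.74 and passed the threshold, but it was -0.34 without old replicate 2 and -0.35 with GC content and width taken out. The peak at the main start of the gene, at chr17:66100601-66102800, had 81.3 per kb compared with 17.5 per kb at the inner start, and its values of 153 and 212 in old and 182 and 169 in young MSCs overlapped. The highest log2 fold change was at the assembly factor gene Ndufaf1, with values of 21.9 and 31.4 in old and 21.2 and 16.9 in young MSCs at chr2:119662201-119663400. Both old samples were above both young ones, but the difference of 0.45 did not pass the test (95% interval from -0.10 to 1.00, limma adjusted p = 0.411) and depended on single samples, with 0.70 without old replicate 1, 0.20 without old replicate 2 and 0.29 without young replicate 2. Ndufab1, the mitochondrial acyl carrier protein that also serves fatty acid synthesis, had values of 129.5 and 136 in old and 169 and 156 in young MSCs, lower in both old samples (log2 fold change -0.29, 95% interval from -0.61 to 0.035). Ndufa2, named here because its unadjusted p was under 0.05, had values of 102 and 98.2 in old and 124 and 131 in young MSCs (log2 fold change -0.35, limma adjusted p = 0.301). Ndufa4 was nearly equal between the groups, with values of 233 and 213 in old and 222 and 224 in young MSCs and a log2 fold change of -0.0037 (95% interval from -0.29 to 0.29). Its paralogue Ndufa4l2, a gene known to be induced by HIF-1 in low oxygen, had an open promoter of 9800 bp with values of 186 and 211 in old and 227 and 195 in young MSCs, which overlapped.

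By role within complex I, the 7 nuclear core subunits, which carry the cofactors and the catalytic sites, had a median log2 fold change of 0.058 with 2 lower and 5 higher, taking for each gene the peak nearest a start and, for the 2 Ndufv2 peaks that both cover one, the stronger peak. This median turned to -0.23 with 7 of 7 lower on the values as deposited and to -0.051 with GC content and width taken out. The 27 accessory subunits had a median of -0.037, with 19 lower and 8 higher, and the 8 assembly factors one of -0.035, with 5 lower and 3 higher (-0.33 and -0.32 on the values as deposited, and 0.0023 for the assembly factors with quantile normalization). At an unadjusted p under 0.05 the counts were 0 of 7, 1 of 27 and 0 of 8, without the inner Ndufv2 peak, which also reached that level, where 16.4% of all peaks and 9.61% of autosomal promoter peaks reached that level. Median levels were 45.3, 34.5 and 41.4 per kb in the core, accessory and assembly groups.

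Complex II oxidises succinate and links the citric acid cycle to the respiratory chain, and its 4 subunits all had a single promoter peak. The levels were close to each other, between 35.8 and 38.1 per kb. Both subunits of the soluble part were lower in both old samples. Sdha, the flavoprotein, had values of 60.7 and 57.3 in old replicates 1 and 2 and 74.3 and 66.8 in young replicates 1 and 2 at chr13:74349301-74351000, with a log2 fold change of -0.25 (95% interval from -0.65 to 0.15). Sdhb, the iron-sulfur subunit, had values of 164 and 175 in old and 192 and 199.7 in young MSCs at chr4:140960001-140965100, with a log2 fold change of -0.21 (95% interval from -0.51 to 0.097). Both intervals include no change. The membrane anchors Sdhc and Sdhd had log2 fold changes of 0.12 and 0.060, which turned to -0.16 and -0.23 on the values as deposited. Sdhc had values of 93.4 and 93.9 in old and 92.9 and 79.5 in young MSCs, where young replicate 2 was the low sample and the other 3 were nearly equal, and without young replicate 2 the log2 fold change was 0.012. Sdhd, whose peak also covers the start of the mitochondrial import gene Timm8b, had values of 87.3 and 130.2 in old and 94.2 and 111 in young MSCs, which overlapped. The median over the 4 peaks was -0.074.

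Complex III, which passes electrons from ubiquinol to cytochrome c, had 9 peaks at 8 genes, 6 lower and 3 higher in old MSCs. Their median log2 fold change was -0.071 (0.015 without old replicate 1). Uqcrh, the hinge protein that binds cytochrome c1, had the most accessible promoter at 56.1 per kb and values of 266 and 316 in old and 302 and 307 in young MSCs, where old replicate 1 was low and the rest were close. The core protein gene Uqcrc1 had 2 peaks. The one at its main start had values of 42.2 and 56.7 in old and 54.4 and 52.8 in young MSCs with a log2 fold change of -0.13 (95% interval from -0.57 to 0.31). The other, a peak of 400 bp beside an inner start at chr9:108947601-108948000, held 9 and 5 counts in old and 16 and 12 counts in young MSCs. Its log2 fold change of -0.61, the lowest of the complex, rests on these few counts (95% interval from -1.55 to 0.33) and lay between -1.09 and -0.14 with each sample left out in turn. Uqcrfs1, the Rieske iron-sulfur protein, had values of 52.5 and 49.4 in old and 54.4 and 43.9 in young MSCs, which overlapped. The highest log2 fold change was at the small subunit gene Uqcr10, with values of 52.1 and 95.1 in old replicates 1 and 2 and 61.7 and 61.1 in young replicates 1 and 2. Only old replicate 2 was high, and the difference was 0.19 with all samples (95% interval from -0.30 to 0.69), and -0.23 without old replicate 2. Without old replicate 1 it was 0.62 and passed the threshold.

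Complex IV, where oxygen is reduced, differs from the other complexes in having several subunits with isoforms that are restricted to certain tissues. Its 14 peaks had a median log2 fold change of -0.066, with 9 lower and 5 higher in old MSCs. Without old replicate 1 the median was 0.15. The complex also had the lowest median level, 27.1 per kb, compared with 37.2, 37.6, 28.6 and 40.2 per kb in complexes I, II, III and V. This median takes in the tissue-restricted isoforms. The median was 13.3 per kb over 5 such isoforms, Ndufa4l2 included. Over 7 widely used counterparts, among them Ndufa4 and the X-linked Cox7b, it was 40.1 per kb. Where a widely used and a tissue-restricted isoform both had a peak, the peak at the widely used one had the higher value per kb. Cox8a had 86.1 per kb, higher than 97.7% of autosomal promoter peaks, while Cox8b, its counterpart in heart and skeletal muscle, had 9.56 per kb, higher than 9.37%. Cox7a2 had 42.7 per kb and the muscle isoform Cox7a1 13.3 per kb. Cox4i1 had 18.6 per kb and Cox4i2, an isoform known from lung and from cells in low oxygen, 9.48 per kb. Cox6b1 had 40.1 per kb and the testis isoform Cox6b2 28.5 per kb, higher than 71.9% and 52.7% of autosomal promoter peaks. Their order rests on peak width, 1300 bp at Cox6b1 and 2800 bp at Cox6b2. Without division by width the Cox6b2 peak was higher in all 4 samples, where Cox6b1 had values of 47.3 and 52.1 in old and 54.7 and 54.3 in young MSCs. In these pairs, and in Ndufa4 and Ndufa4l2 (74.3 and 20.9 per kb), the tissue-restricted form was the lower one per kb in all 4 samples. The Cox4i1 peak also lies within 1 kb of starts of Emc8 and Gm27021 and the Ndufa4 peak within 1 kb of one of Phf14, so that the level of these 2 peaks cannot be assigned to the OXPHOS gene alone. The closest pair was Cox6b1 and Cox6b2, with ratios between 1.20 and 1.75 over the samples, and the widest was Cox8a and Cox8b, with ratios between 6.84 and 11.1.

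The highest and the lowest log2 fold change in complex IV were both at tissue-restricted isoforms, and neither passed the test. Cox7a1, at chr7:30183601-30186300, had values of 36.6 and 45.7 in old replicates 1 and 2 and 31.5 and 29.7 in young replicates 1 and 2, with both old samples above both young ones and a log2 fold change of 0.41 (95% interval from -0.062 to 0.88, limma adjusted p = 0.380). Leaving out old replicates 1 and 2 in turn gave 0.57 and 0.25. Cox6b2, at chr7:4750901-4753700, had values of 73.6 and 64.3 in old replicates 1 and 2 and 98.2 and 82.8 in young replicates 1 and 2, with both old samples below both young ones and a log2 fold change of -0.39 (95% interval from -0.78 to 0.0060, limma adjusted p = 0.314). Cox8b had values of 44.3 and 42.4 in old and 59.4 and 45.1 in young MSCs, where young replicate 1 was the high sample. Cox4i2 was weak in all samples, with 15.1 and 17.7 in old and 18.9 and 16.6 in young MSCs, and the groups overlapped. Among the widely used counterparts, Cox4i1 had values of 83.5 and 101 in old and 80.9 and 76.9 in young MSCs, higher in both old samples, with a log2 fold change of 0.22 that turned to -0.069 on the values as deposited. It was 0.35 and 0.081 with old replicates 1 and 2 left out in turn, and 0.092 with GC content and width taken out. Cox6a1 had values of 44.8 and 64.0 in old and 55.4 and 56.7 in young MSCs, Cox7a2 values of 65.4 and 99.7 in old and 96.9 and 79.8 in young MSCs, and Cox8a values of 153 and 188 in old and 163 and 186 in young MSCs. In each of these 3 genes old replicate 1 was the lowest of the 4 samples. Over the 5 tissue-restricted isoforms with a peak, Ndufa4l2 included, the median log2 fold change was -0.11. Over 7 widely used counterparts, among them Ndufa4 and the X-linked Cox7b, it was -0.064. In the same order, the medians were -0.38 and -0.35 on the values as deposited, and -0.26 and -0.16 with GC content and width taken out.

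Complex V, the ATP synthase, was the only complex with more peaks higher (11) than lower (7) in old MSCs, at a median log2 fold change of 0.014, which turned to -0.11 once GC content and width were taken out, to -0.27 on the values as deposited and to -0.088 and -0.011 without old replicate 2 and young replicate 1 in turn. It had the highest median level of the complexes. The most accessible promoter was that of Atp5j, coupling factor 6 of the peripheral stalk, with 78.0 per kb at chr16:84833801-84836600. The same peak covers the start of Gabpa, which encodes the DNA-binding subunit of an ETS factor known to regulate OXPHOS genes. Its values of 213 and 225 in old and 212 and 223 in young MSCs overlapped, with a log2 fold change of 0.011 (95% interval from -0.28 to 0.30). In the catalytic head, Atp5a1 and Atp5b, the alpha and beta subunits, differed in direction with all 4 samples. Atp5a1 had values of 87.8 and 96.7 in old and 73.0 and 76.0 in young MSCs, with both old samples above both young ones (log2 fold change 0.30, 95% interval from -0.072 to 0.68), while Atp5b had 96.0 and 123 in old and 121 and 116 in young MSCs, where old replicate 1 was low (log2 fold change -0.12, 95% interval from -0.49 to 0.24). Whether the 2 genes differ from each other was not tested.

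Atp5d, the delta subunit of the central stalk, had the highest log2 fold change in complex V, with values of 239 and 263 in old replicates 1 and 2 and 197 and 201 in young replicates 1 and 2 in a peak of 13400 bp at chr10:80130101-80143500 that also covers the start of Cbarp. Both old samples were above both young ones (log2 fold change 0.33, 95% interval from 0.041 to 0.62, limma adjusted p = 0.240). Without old replicate 1 the value was 0.40 and passed the threshold, and it was 0.22 with GC content and width taken out. The lowest fold change of all 90 peaks was at Atp5g3, one of the genes for the membrane ring subunit c. It lay in a peak of 300 bp at chr2:73912201-73912500, 875 bp upstream of the start, which held 1 and 0 counts in old and 7 and 12 counts in young MSCs. The old samples were at or below 3 counts, the level that a count of 0 allows, and the ratio of old to young counts, corrected for depth, was 0.0600 (exact 95% interval from 0.00144 to 0.377, for counting error only). The log2 fold change of -1.70 (limma adjusted p = 0.0947) depends on the pseudocount and was -3.69 with 0.1 and -0.60 with 5. The main Atp5g3 peak next to it, with values of 80.5 and 81.4 in old and 90.2 and 85.8 in young MSCs, had a log2 fold change of -0.12 (95% interval from -0.49 to 0.25). At every member peak other than this one and the inner Uqcrc1 peak, each sample held at least 35 counts.

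No promoter of the genes that work with the OXPHOS subunits passed an adjusted p under 0.01 in limma or limma-voom. All 36 further OXPHOS genes, mostly assembly factors together with cytochrome c (Cycs) and cytochrome c1 (Cyc1), had a promoter peak. Of these 26 were lower and 10 higher in old MSCs, 3 had an unadjusted p under 0.05 (8.33%, against the 16.4% of all peaks and 9.61% of autosomal promoter peaks given above), and the median log2 fold change was -0.040. On the values as deposited 35 of the 36 were lower with a median of -0.33, and the median was -0.10 with GC content and width taken out. Cox20, a chaperone for a mitochondrially encoded complex IV subunit, had values of 324 and 314 in old and 403 and 392 in young MSCs (log2 fold change -0.32, limma adjusted p = 0.205). Foxred1, needed for complex I assembly, had values of 178 and 157 in old and 233 and 203 in young MSCs (log2 fold change -0.37, limma adjusted p = 0.220). Uqcc2, needed for complex III assembly, had values of 97.2 and 127 in old and 91.9 and 73.3 in young MSCs (log2 fold change 0.43, limma adjusted p = 0.266). These 3 genes and those below are all those of these 4 gene lists with an unadjusted p under 0.05, named after their values were seen. Among 18 nuclear regulators of mitochondrial genes, 9 were lower and 9 higher, 2 had an unadjusted p under 0.05 (11.1%), and the median was 0.0041, which turned to -0.28 on the values as deposited and to -0.096 with GC content and width taken out. Tfam, which packages mitochondrial DNA and starts its transcription, had values of 106 and 111 in old and 139 and 139 in young MSCs, lower in both old samples (log2 fold change -0.35, limma adjusted p = 0.280). Mterf3, a regulator of mitochondrial gene expression, had values of 215 and 185 in old and 264 and 233 in young MSCs, also lower in both old samples (log2 fold change -0.31, limma adjusted p = 0.291). Of 17 genes of the citric acid cycle and pyruvate dehydrogenase, 11 were lower and 6 higher, 2 had an unadjusted p under 0.05 (11.8%), and the median was -0.13 (-0.41 as deposited and -0.21 with GC content and width taken out). Pdhx, a structural subunit of pyruvate dehydrogenase, had values of 126 and 129 in old and 169 and 159.7 in young MSCs (log2 fold change -0.36, limma adjusted p = 0.252). Pdhb, a catalytic subunit of the same enzyme complex, had values of 277 and 242 in old and 319.8 and 313 in young MSCs (log2 fold change -0.29, limma adjusted p = 0.289). Of 18 glycolysis genes, 10 were lower and 8 higher, 2 had an unadjusted p under 0.05 (11.1%), and the median was -0.022 (-0.31 as deposited, 0.018 with quantile normalization and -0.14 with GC content and width taken out). Pgk1, the X-linked gene for phosphoglycerate kinase, had values of 179 and 167 in old and 216 and 236 in young MSCs, lower in both old samples (log2 fold change -0.38, limma adjusted p = 0.187). The glycolytic enzyme gene Aldoc had values of 22.4 and 23.8 in old and 10.6 and 8.90 in young MSCs and a log2 fold change of 1.17 (limma adjusted p = 0.0461), which passed only the wider threshold of 0.05.

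OXPHOS promoter peaks were often shared with another gene. Of the 90 peaks, 37 were within 1 kb of a start of another protein-coding gene (41.1%, 95% Wilson interval from 31.5% to 51.4%), compared with 10.2% of all autosomal promoter peaks. The share was 22 of 45 in complex I, 3 of 4 in complex II, 4 of 9 in complex III, 1 of 14 in complex IV and 7 of 18 in complex V. Partners included other genes for mitochondrial or ribosomal proteins, such as Mrpl36 at Ndufs6, Rps28 at Ndufa7 and Rps2 at Ndufb10. In Ndufa7 and Rps28, which are transcribed in opposite directions, the starts were 10 bp apart. Among the peaks described above, Ndufa2 also shared its peak with Ik, Sdha with Ccdc127, Uqcrh with Lrrc41, Uqcr10 with Zmat5 and Atp5a1 with Haus1. Accessibility at such a peak cannot be assigned to one of its genes. The shared peaks were wider, with a median of 2800 bp compared with 2000 bp, but similar per kb (37.7 and 35.8). Shared promoters had a median log2 fold change of -0.027 and single ones of -0.055 (-0.31 and -0.34 on the values as deposited).

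Several DNA motifs are known from OXPHOS promoters, and their letters were counted on both strands in promoter sequences of RefSeq (GRCm38.p6), each running from 250 bases before to 50 bases after a start. Of the 90 autosomal genes 73 were matched, and 77 sequences of 72 genes overlapped a member peak. They were compared with 13460 sequences of autosomal protein-coding genes that overlapped any peak. The motif of NRF1, a factor named for nuclear respiratory genes, was counted with at most 1 mismatch outside its central CATG, and was held by 15 (19.5%) compared with 5.07% of all sequences. The shorter motif GCGCATGCG, which lies within it, was held by 10 (13.0%) compared with 3.35%. The YY1 motif AAGATGGC was held by 11 (14.3%) compared with 3.93%, the ERR motif AAGGTCA of oestrogen-related receptors by 8 (10.4%) compared with 3.02%, and the ETS motif CCGGAAG by 18 (23.4%) compared with 16.5%. The SP/KLF motif GGGCGG was held by a smaller share of OXPHOS sequences, 34 (44.2%) compared with 64.1%. The NF-Y motif CCAAT was held by 32 (41.6%) compared with 37.0%, the TATA motif TATAAA by 7 (9.09%) compared with 6.82% and the CRE motif TGACGTCA by 4 (5.19%) compared with 3.08%. In whole peaks, which are longer, the SP/KLF motif was in 86.1% of member peaks compared with 88.3% of 10567 peaks with such a sequence, NF-Y in 91.7% of member peaks compared with 92.4% and TATA in 63.9% of member peaks compared with 65.6%. Apart from the NRF1 forms, no motif contains another. For NRF1 the 95% Wilson interval of the OXPHOS share ran from 12.2% to 29.7%, for YY1 from 8.17% to 23.8% and for SP/KLF from 33.6% to 55.3%. By complex, the NRF1 motif was in 7 of 40, 1 of 3, 2 of 5, 2 of 11 and 3 of 18 sequences of complexes I to V, and the 11 sequences with a YY1 motif belonged to complexes I (8) and V (3). Member peaks with an NRF1 motif had a median log2 fold change of -0.037 and those without one of -0.035, for YY1 the medians were -0.027 and -0.036, for ETS 0.0060 and -0.043, for SP/KLF -0.055 and -0.0037, and for NF-Y -0.055 and -0.022, with no test of these differences. On the values as deposited all of these medians were between -0.34 and -0.28.

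To show these motifs in place, one promoter per complex is given, namely the one that holds the most kinds of the NRF1, ETS, YY1, SP/KLF and NF-Y motifs, with ties going to the higher value per kb. They were chosen for their letters and not for a difference with age. The sequences are from RefSeq (GRCm38.p6), 5′ to 3′ on the strand of the gene, with every match to one of the 5 motifs on either strand in capitals. They are Ndufaf8 (complex I) at chr11:120098684-120098983 on the plus strand, Sdhb (complex II) at chr4:140961021-140961320 on the plus strand, Uqcrh (complex III) at chr4:116075021-116075320 on the minus strand, Cox6a1 (complex IV) at chr5:115348909-115349208 on the minus strand and Atp5l (complex V) at chr9:44920693-44920992 on the minus strand.
Ndufaf8: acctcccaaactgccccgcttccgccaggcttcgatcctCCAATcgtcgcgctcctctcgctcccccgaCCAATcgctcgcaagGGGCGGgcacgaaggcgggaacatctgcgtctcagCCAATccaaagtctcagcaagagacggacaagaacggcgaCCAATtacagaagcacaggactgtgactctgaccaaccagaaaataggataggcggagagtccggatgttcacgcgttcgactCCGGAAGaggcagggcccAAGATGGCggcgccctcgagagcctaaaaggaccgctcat
Sdhb: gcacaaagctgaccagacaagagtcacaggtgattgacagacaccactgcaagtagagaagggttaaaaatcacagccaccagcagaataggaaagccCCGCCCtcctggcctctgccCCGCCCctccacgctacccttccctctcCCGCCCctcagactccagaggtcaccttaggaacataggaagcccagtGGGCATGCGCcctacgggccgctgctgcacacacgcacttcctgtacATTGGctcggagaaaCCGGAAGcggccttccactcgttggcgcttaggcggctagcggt
Uqcrh: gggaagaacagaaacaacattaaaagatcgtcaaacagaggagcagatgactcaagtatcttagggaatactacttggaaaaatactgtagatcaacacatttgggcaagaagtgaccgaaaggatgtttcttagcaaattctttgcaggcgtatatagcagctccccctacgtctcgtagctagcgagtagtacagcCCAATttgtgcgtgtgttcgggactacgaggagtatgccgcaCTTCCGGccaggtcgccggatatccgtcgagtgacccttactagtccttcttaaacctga
Cox6a1: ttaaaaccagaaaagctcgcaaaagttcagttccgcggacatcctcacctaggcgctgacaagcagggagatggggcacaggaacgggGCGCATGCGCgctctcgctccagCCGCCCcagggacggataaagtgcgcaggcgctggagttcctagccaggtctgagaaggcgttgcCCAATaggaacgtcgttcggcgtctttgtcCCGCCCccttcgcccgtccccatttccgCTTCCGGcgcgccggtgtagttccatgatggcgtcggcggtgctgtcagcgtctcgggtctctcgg
Atp5l: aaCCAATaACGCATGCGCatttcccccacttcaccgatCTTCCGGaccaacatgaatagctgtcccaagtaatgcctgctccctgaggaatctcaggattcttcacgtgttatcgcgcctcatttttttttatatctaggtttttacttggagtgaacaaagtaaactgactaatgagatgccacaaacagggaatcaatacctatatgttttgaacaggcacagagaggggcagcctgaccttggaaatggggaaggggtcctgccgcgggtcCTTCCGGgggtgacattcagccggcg

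The Cox6a1, Sdhb and Uqcrh promoters lie in the peaks described above. The Ndufaf8 peak, which is shared with Tepsin, had values of 132 and 201 in old and 161 and 151 in young MSCs, and the Atp5l peak, for the g subunit of the ATP synthase membrane part, had values of 117 and 151 in old and 124 and 143 in young MSCs. In both, old replicate 2 was the highest sample and old replicate 1 the lowest, so that the groups overlapped (log2 fold changes 0.058 and 0.0014). A match describes the letters of the sequence and does not show that a factor binds there.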

How the data were processed

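ATAC-seq peaks were compared between 2 old and 2 young MSC samples, grouped by the age in the labels. The authors deposited 1 score per peak and sample, which they named RPKM and made from counts by scaling to the library total, without division by the peak length. This was read from the values, 100% of which were whole multiples of the smallest positive value of their sample (tolerance 0.001). The library totals follow from that smallest value only with a scale of 10000000, which was set for the calculation and not read from the multiples. A peak of 3 counts has a value between 0.921 and 1.06, depending on the sample. Intervals on counts and shares cover counting error only. Bowtie2, Picard and mm10 are named in the submitters' processing notes. The methods of the paper give alignment, duplicate removal and chromstaR peaks for cells cultured in hypoxia and normoxia, and no separate processing was stated for old and young cells.

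Transcript starts came from GENCODE vM21 on the same build. Values were divided by RLE factors of 0.813, 1.01, 1.07 and 1.15 (old replicates 1 and 2, young replicates 1 and 2) and tested two-sided as log2(value + 1) with limma 3.58.1 in R 4.3.3 (lmFit, then eBayes with trend and robust moderation), with Benjamini-Hochberg adjustment over 117282 peaks. The 95% intervals use the moderated variances and are not adjusted. An exact permutation test of 2 samples against 2 cannot go below p = 0.333 and was not used. Summaries were made with scipy 1.17.1, pandas 2.3.3 and numpy 2.4.6 under Python 3.11.15.

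The members and gene lists were chosen with earlier results of these data known. Named peaks were all called members, those with the highest and lowest fold change and value per kb in each complex, and a fixed set of subunits and isoform pairs. A gene of that set with several peaks was named with the one nearest a start, ties going to the higher mean value. Alternatives were other scalings, pseudocounts of 0.1 and 5, each sample left out, GC content and width taken out of each sample (mgcv 1.9.3), a replicate block, a filter on weak peaks, plain moderation, an adjusted p of 0.05, limma-voom, library totals without mitochondrial peaks, distances of 500 bp and 2 kb, members without assembly factors and Atp5s, and motifs counted in whole peaks.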

Additional observations from a re-analysis of the deposited data

Results flagged for a closer look

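Promoter peaks of the 3 OXPHOS genes on the X chromosome were outside the autosomal comparison but held signal far above the value of 3 counts. Ndufa1, a complex I subunit of the membrane arm, had a mean of 38.6 over the 4 samples, with 35.3 and 39.9 in old and 37.8 and 41.3 in young MSCs (log2 fold change -0.071, limma adjusted p = 0.906). Ndufb11, another complex I subunit of that arm, had a mean of 109 over the 4 samples, with 107 and 111 in old and 106 and 113 in young MSCs (log2 fold change -0.0072, limma adjusted p = 0.990). Cox7b, a widely used complex IV subunit, had a mean of 26.3 over the 4 samples, with 22.4 and 28.7 in old and 28.5 and 25.8 in young MSCs (log2 fold change -0.096, limma adjusted p = 0.884).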

How the results depend on the processing

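The count of OXPHOS promoter peaks past the threshold (limma, adjusted p under 0.01) was 0 under every alternative with all 4 samples, limma-voom included, with 1 to 13 members at an unadjusted p under 0.05 over the other scalings, pseudocounts, filter, moderation and count model. It ranged from 0 to 6 over the fits without 1 sample, in which a lone sample is assumed to vary like the others (6 without old replicate 1, against 10313 of all peaks). The filter on weak peaks kept 88 members, and plain moderation called 0 of all peaks. With the replicate number as a block, 0 members passed and 2 had an unadjusted p under 0.05, while calls over all peaks went from 66 to 1269. Deviations of same-numbered samples from their group means had r = -0.0993 across peaks, and the samples share only a number, so no pairing was assumed. The median log2 fold change of -0.035 was -0.32 on the values as deposited, -0.13 after the correction for GC content and width, and -0.14 to 0.053 without 1 sample. For complexes I to V the medians were -0.32, -0.36, -0.36, -0.35 and -0.27 on the values as deposited. With the GC correction they were -0.13, -0.16, -0.071, -0.16 and -0.11. Without 1 sample they ran from -0.10 to 0.0036 for I, -0.22 to -0.017 for II, -0.16 to 0.015 for III, -0.19 to 0.15 for IV and -0.088 to 0.093 for V. On the values as deposited, the median of -0.32 and the share of lower peaks of 94.4% ranged over -0.58 to -0.080 and 64.4 to 100% without 1 sample. RLE scaling in their place gave -0.035 and 58.9%. The RLE factors set the median of all peaks near 0 by construction. The cause of the other shifts was not tested. Counted in whole peaks, which are longer than the promoter sequences, motif shares of members and of all such peaks were 45.8% and 38.2% for ETS, 40.3% and 20.5% for YY1, 86.1% and 88.3% for SP/KLF, 91.7% and 92.4% for NF-Y, 63.9% and 65.6% for TATA and 75.0% and 41.4% for ERR. Among the 31 named peaks, log2 fold changes changed sign as follows, with no cause tested. On the values as deposited they were -0.23 at Ndufs1, -0.039 at Ndufv1, -0.16 at Sdhc, -0.23 at Sdhd, -0.089 at Uqcr10, -0.23 at Uqcrfs1, -0.069 at Cox4i1 and -0.28 at Atp5j. After the GC correction they were -0.051 at Ndufs1, -0.022 at Sdhd, -0.064 at Uqcrfs1 and -0.12 at Atp5j, with quantile normalization 0.045 at Ndufa4 and 0.013 at Cox8a, and with equal total signal 0.017 at Ndufa4. Over the fits without 1 sample, the peaks that changed sign ranged at Ndufa4 from -0.069 to 0.062, Ndufa4l2 from -0.20 to 0.024, Ndufs1 from -0.034 to 0.15, Ndufs4 from -0.22 to 0.12, Ndufv1 from -0.22 to 0.72, Sdhd from -0.23 to 0.35, Uqcr10 from -0.23 to 0.62, Uqcrc1 from -0.34 to 0.080, Uqcrfs1 from -0.094 to 0.21, Uqcrh from -0.19 to 0.052, Cox6a1 from -0.32 to 0.19, Cox7a2 from -0.42 to 0.18, Cox8a from -0.18 to 0.11, Atp5b from -0.30 to 0.055 and Atp5j from -0.030 to 0.051. The named peaks past the threshold in any of these fits were the inner Ndufv2 peak, Ndufv1, Uqcr10 and Atp5d, each only without old replicate 1. Neither pseudocount changed a sign among the named peaks, and a block leaves each fold change as it is in this balanced design. With 2 samples per group and peaks shared between neighbouring genes, small differences, and which of the genes they belong to, cannot be resolved, and values at or below 3 counts give no usable fold change.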
